A study of Mus musculus with 6 samples.

Results

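*Fgf21* and 7 other liver-expressed genes were described in livers of mice lacking *Surf4* in hepatocytes and of their littermate controls. The 8 genes were chosen by name and make up 8 of 35540 gene symbols in the table, and all 8 were among the 14189 genes expressed highly enough to be tested. They encode the hepatokine FGF21, the receptor components KLB and FGFR4, and the secreted liver proteins GDF15, fetuin-B (*Fetub*), fetuin-A (*Ahsg*), LECT2 and selenoprotein P (*Selenop*). The choice was made with their genotype differences in these same livers known, so those differences are given as a description with no test. SURF4 is a cargo receptor of the endoplasmic reticulum that helps secreted proteins reach the Golgi, and the comparison asks how hepatocyte mRNAs differed when it was deleted. Every mouse was homozygous for a conditional *Surf4* allele whose exon 2 is flanked by loxP sites. 3 mice carried an *Albumin* promoter-driven *Cre* transgene (Surf4(fl/fl) Alb-Cre+) and 3 did not (Surf4(fl/fl) Alb-Cre-), each group holding males as replicates 1 and 3 and a female as replicate 2. The controls lack the transgene itself, so an effect of *Cre* and an effect of the deletion cannot be told apart. The *Albumin* promoter drives *Cre* in hepatocytes, and the other cells of the liver keep *Surf4*. The ages of these mice are not given in the sources used here, and food was freely available in the housing, with an overnight fast described before tissue collection. Whether that fast covered these 6 livers is not stated, so their feeding state is unknown.

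FGF21 is a hormone released mainly by the liver, and its gene is known to be induced by fasting, through the fatty acid-sensing receptor PPARA, and by amino acid shortage and endoplasmic reticulum stress, through ATF4. It acts on cells that carry an FGF receptor together with the co-receptor beta-klotho, encoded by *Klb*. In hepatocytes beta-klotho pairs mainly with FGFR4 and receives the gut hormone FGF15, which lowers bile acid synthesis. GDF15 is a stress-induced hormone that acts on the hindbrain receptor GFRAL. Fetuin-A is an abundant plasma protein that binds calcium phosphate, fetuin-B is a protease inhibitor required for fertilization, LECT2 is a plasma protein that binds the receptor MET, and selenoprotein P carries selenium from the liver to other organs.

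The promoter of *Fgf21* is shown because the gene had the widest genotype difference of the 8, and that of *Gdf15* because the gene set a same-numbered pair of mice apart. On GRCm38, *Fgf21* lies on the minus strand at chr7:45613886-45615490 with 3 exons, and *Gdf15* on the minus strand at chr8:70629393-70632456. The sequences are the 250 bases before the start site in RefSeq, at chr7:45615491-45615740 and chr8:70632457-70632706, written 5′ to 3′ on the gene's strand with the motif matches in capitals.
Fgf21: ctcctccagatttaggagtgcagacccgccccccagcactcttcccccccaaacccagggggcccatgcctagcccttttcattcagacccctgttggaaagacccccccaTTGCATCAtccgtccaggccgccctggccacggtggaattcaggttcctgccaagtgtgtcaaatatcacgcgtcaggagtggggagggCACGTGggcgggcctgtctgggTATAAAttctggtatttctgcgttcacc
Gdf15: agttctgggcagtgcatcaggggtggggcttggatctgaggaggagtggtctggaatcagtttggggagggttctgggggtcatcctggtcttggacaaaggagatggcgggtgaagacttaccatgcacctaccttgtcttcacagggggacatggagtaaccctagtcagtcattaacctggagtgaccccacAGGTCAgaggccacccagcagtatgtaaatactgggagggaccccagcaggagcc
Letters were searched on both strands. The composite element bound by ATF4 with a C/EBP partner such as CHOP was searched as TGATGNAA, and its reverse complement began 139 bases before the *Fgf21* start site. The E-box, a site of basic helix-loop-helix factors, was searched as CACGTG and began 50 bases before that start. The TATA box, where the basal transcription machinery assembles, was searched as TATAAA and began 28 bases before it. The nuclear receptor hexamer, a unit of the sites of PPARA and its relatives, was searched as AGGTCA. It was the 1 match in the *Gdf15* promoter shown and began 55 bases before the start site. The transcript from that start carried 72.3 to 78.2% of the gene's mRNA. Another RefSeq start of *Gdf15* lies 361 bases downstream, where a transcript with 21.8 to 27.7% of the mRNA begins. Its window, not shown, held an E-box that began 83 bases before that start. The core of the cyclic AMP response element was searched as TGACGT and matched in the window of no member. Among 32851 promoters of the same table, whose windows also take in 50 bases after the start, 3.97% held the composite element, 7.15% the E-box, 13.6% the TATA box, 16.3% the nuclear receptor hexamer and 7.51% the cyclic AMP core. *Fgf21* was the only member whose window held the composite element. These are matches of letters, and binding at these bases was not measured here.

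Expression is given in TPM, the share of a library's transcripts after correction for transcript length, summed over the transcripts of a gene, and differences are on the scale log2(TPM + 0.1), Alb-Cre+ minus Alb-Cre-, with the standard error (SE) of the limma fit. *Surf4* itself was 59.0, 71.8 and 54.3 TPM in Alb-Cre+ replicates 1, 2 and 3 and 92.5, 94.5 and 92.5 TPM in the Alb-Cre- mice, with no overlap between groups. These gene totals can include mRNA from which the loxP-flanked exon was removed. The paper found such mRNA in Alb-Cre+ livers, and reported a much stronger loss of transcripts holding that exon than of total *Surf4* mRNA. The TPM totals therefore do not show how complete the deletion was. Across all genes limma called 0 of 14189 (0%) at the adjusted threshold of 0.01, with 250 (1.76%) at an unadjusted p under 0.05. The lowest adjusted p in limma was 0.456, so the targeted gene *Surf4* was not called either. The paper's own DESeq2 comparison reported limited but significant changes at a false discovery rate under 0.01. The 0 calls here therefore do not mean that no gene differed. Hepatocyte markers summed to 66520 to 87420 TPM in Alb-Cre+ livers and 86180 to 95650 TPM in controls, the lowest in Alb-Cre+ replicate 3. A mean of 1 TPM was reached by 0 of 4 lymphocyte, 0 of 4 adipocyte, 1 of 4 pancreatic acinar and 3 of 5 cholangiocyte markers. The libraries are whole liver, so fewer cells of a type and less RNA per cell cannot be told apart. TPM keeps no sequencing depth, so the depth behind each value is unknown. The samples are separate mice, and the SD and SE give the spread between them.

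*Fgf21* mRNA was lower in the Alb-Cre+ mouse of every same-numbered pair, by about the same factor, while its level differed widely between mice of a group. It was 4.52, 16.9 and 2.57 TPM in Alb-Cre+ replicates 1, 2 and 3 and 22.7, 70.4 and 9.19 TPM in Alb-Cre- replicates 1, 2 and 3. In each group the female, replicate 2, was highest and replicate 3 lowest, and the groups overlapped because the Alb-Cre+ female exceeded the lowest control. The Alb-Cre+ mean was 7.98 ± 7.74 TPM and the control mean 34.1 ± 32.1 TPM (SD, n = 3 each). Within pairs the control value was 5.03, 4.18 and 3.58 times that of the Alb-Cre+ mouse. The difference was -2.05 (SE 0.88; 95% interval -4.13 to 0.02) with the mice unpaired, and its SE was 0.14 with the replicate number as a block. *Fgf21* was chosen with these differences known, so neither SE is read as a test. Among all genes 12.4% were lower in all 3 pairs. Within a group the highest mouse was 6.56 times the lowest in Alb-Cre+ and 7.66 times in Alb-Cre-, more than the genotype factor of any pair. The highest of the 6 mice was 27.4 times the lowest, and the SD of *Fgf21* over the mice on the log2 scale was above that of 98.8% of the 10635 genes that averaged 1 TPM or more. All of its signal was assigned to 1 transcript of 210 codons.

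**Figure D1:**
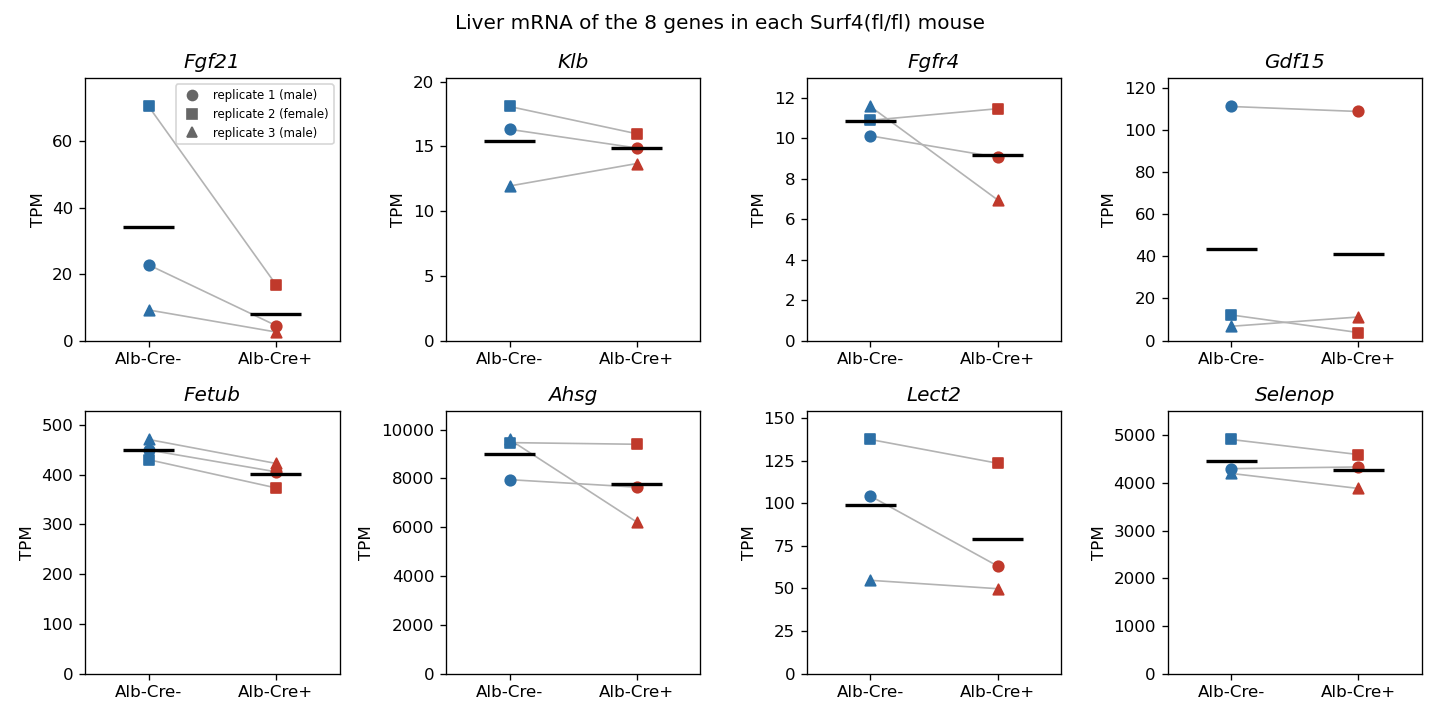
TPM (vertical axes, from 0) of the 8 genes in each mouse, Alb-Cre- in blue and Alb-Cre+ in red, with lines joining same-numbered mice and black bars at group means. The 3 lines of *Fgf21* all slope down, and both replicate 1 mice stand above 100 TPM for *Gdf15*.

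The genes of the receptor components for FGF21 and FGF15 overlapped between genotypes. *Klb* was 14.9, 16.0 and 13.7 TPM in Alb-Cre+ mice and 16.3, 18.1 and 11.9 TPM in controls, a difference of -0.04 (SE 0.19; 95% interval -0.48 to 0.40) with mixed signs within pairs. *Fgfr4* was 9.06, 11.5 and 6.95 TPM in Alb-Cre+ mice and 10.1, 10.9 and 11.6 TPM in controls, a difference of -0.27 (SE 0.21; 95% interval -0.76 to 0.22). It was -0.45 without Alb-Cre+ replicate 2 and -0.09 without Alb-Cre+ replicate 3. Its groups overlapped, and its lowest value came from Alb-Cre+ replicate 3, the mouse with the lowest hepatocyte marker sum. A link between that sum and *Fgfr4* was not tested. Of the 8 FGF receptor and co-receptor genes 6 were tested, 2 higher and 4 lower in Alb-Cre+ livers with a median of -0.05 (0.13 without Alb-Cre+ replicate 3), against a median of -0.0017 over all genes. *Fgfr1* was 2.35, 3.75 and 2.52 TPM in Alb-Cre+ mice and 1.63, 1.92 and 2.33 TPM in controls, higher with no overlap, as 2.18% of all genes were. *Fgfr3* was 3.23, 7.93 and 2.52 TPM against 2.81, 3.24 and 2.00 TPM, higher in all 3 pairs, as 11.5% of all genes were. *Fgfr2* (-0.09, SE 0.30) and the kinase-lacking receptor gene *Fgfrl1* (-0.06, SE 0.22) had mixed signs. Klotho (*Kl*) averaged 0.0369 TPM and *Lctl* was listed at 0 TPM in every liver, both under the minimum for testing.

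Genes of bile acid synthesis, the process lowered through FGFR4 and KLB, and of its control had lower point estimates in Alb-Cre+ livers, with wide errors. All 5 bile acid genes tested were lower, with a median of -0.50, where 50.4% of all genes tested were lower. For genotype 0 of 5 had an unadjusted p under 0.05 in limma, beside 1.76% of all genes. For sex all 5 had one, beside 28.7% of all genes, with a median of -1.42 (females minus males). This list was written with earlier results of these data known, and nothing is read from its counts. *Cyp7a1*, the rate-limiting enzyme of bile acid synthesis, was 80.2, 23.1 and 39.5 TPM in Alb-Cre+ mice and 135, 30.2 and 50.7 TPM in controls, lower in all 3 pairs (-0.50, SE 0.62). *Cyp8b1*, the sterol 12-alpha-hydroxylase, differed by -0.72 (SE 0.61), and *Nr0b2*, which encodes the repressor SHP, by -0.85 (SE 0.89), each with an opposite sign in a pair. *Cyp27a1* (-0.20, SE 0.22) and *Cyp7b1* (-0.05, SE 0.94), of the alternative pathway, differed least. This list's median moved from -0.97 without Alb-Cre- replicate 2 to -0.03 without Alb-Cre+ replicate 2, and it was -0.05 without Alb-Cre- replicate 1 and -0.97 without Alb-Cre+ replicate 1. Of 20 FGF signalling and ERK feedback genes, 11 were higher and 9 lower, with a median of 0.03, which was -0.26 without Alb-Cre+ replicate 2, -0.15 without Alb-Cre- replicate 3 and 0.33 without Alb-Cre+ replicate 3. Of 7 other FGF ligands only *Fgf1* and *Fgf23* were tested, and *Fgf15*, made in the ileum, was listed at 0 TPM. *Fgf1* was 72.2, 73.6 and 69.4 TPM in Alb-Cre+ mice and 73.0, 75.1 and 62.5 TPM in controls, a higher level than *Fgf21* in every mouse.

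The genes known to act upstream of *Fgf21* had no common direction. Of 16 transcription factors known to act on *Fgf21*, 11 were higher and 5 lower in Alb-Cre+ livers, with a median of 0.08 that was -0.05 without Alb-Cre+ replicate 2 and 0.15 without Alb-Cre+ replicate 3. *Ppara* was 63.0, 89.2 and 42.0 TPM in Alb-Cre+ mice and 85.3, 106 and 66.8 TPM in controls, lower in all 3 pairs with overlapping groups (-0.45, SE 0.29). *Creb3l3*, a liver factor that acts with PPARA, was 252, 274 and 210 TPM against 221, 211 and 183 TPM, higher in all 3 pairs (0.26, SE 0.15). *Hnf4a* (0.08, SE 0.18) and *Rxra*, the partner receptor of PPARA (0.04, SE 0.20), had mixed signs. Of 18 PPARA-responsive genes, 14 were higher and 4 lower in Alb-Cre+ livers, with a median of 0.27. Without Alb-Cre- replicate 3 that median was -0.02, and without Alb-Cre- replicate 2 it was 0.52. The carnitine palmitoyltransferase gene *Cpt1a*, the step that admits fatty acids to mitochondria, was 158, 179 and 130 TPM in Alb-Cre+ mice and 273, 270 and 187 TPM in controls, lower with no overlap (-0.63, SE 0.20). The fatty acid hydroxylases *Cyp4a14* (0.22, SE 0.27) and *Cyp4a10* (0.36, SE 0.27) were higher in all 3 pairs, while *Fabp1*, the liver fatty acid binding protein, had mixed signs (-0.17, SE 0.38).

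The ATF4 and CHOP stress genes were more often lower, 10 of 15 tested, with 5 higher and a median of -0.22, which was -0.42 without Alb-Cre+ replicate 1 and -0.08 without Alb-Cre+ replicate 3. *Atf5*, an ATF4-related factor of the stress response, was 267, 247 and 152 TPM in Alb-Cre+ mice and 544, 472 and 435 TPM in controls. Every Alb-Cre+ value of *Atf5* lay below every control value, the difference was -1.16 (SE 0.23), and its adjusted p was not under 0.01. *Ddit4*, an inhibitor of mTORC1 signalling, was 43.5, 28.7 and 12.7 TPM against 45.4, 45.4 and 72.1 TPM, also with no overlap (-1.07, SE 0.44). The asparagine synthetase gene *Asns* was 2.32, 4.58 and 1.62 TPM against 5.64, 3.81 and 17.1 TPM with overlap (-1.44, SE 0.60). *Atf4* mRNA itself was 56.5, 55.8 and 56.3 TPM against 44.0, 80.7 and 39.0 TPM (0.12, SE 0.26), and the C/EBP genes *Ddit3*, which encodes CHOP (-0.44, SE 0.32), and *Cebpb* (-0.20, SE 0.26) overlapped between groups. 3 genes of this list (*Atf5*, *Ddit4* and *Asns*) and 1 PPARA-responsive gene (*Cpt1a*) had an unadjusted p under 0.05, beside 1.76% of all genes. The lists were written with earlier results of these data known, so nothing is read from these counts.

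**Figure D2:**
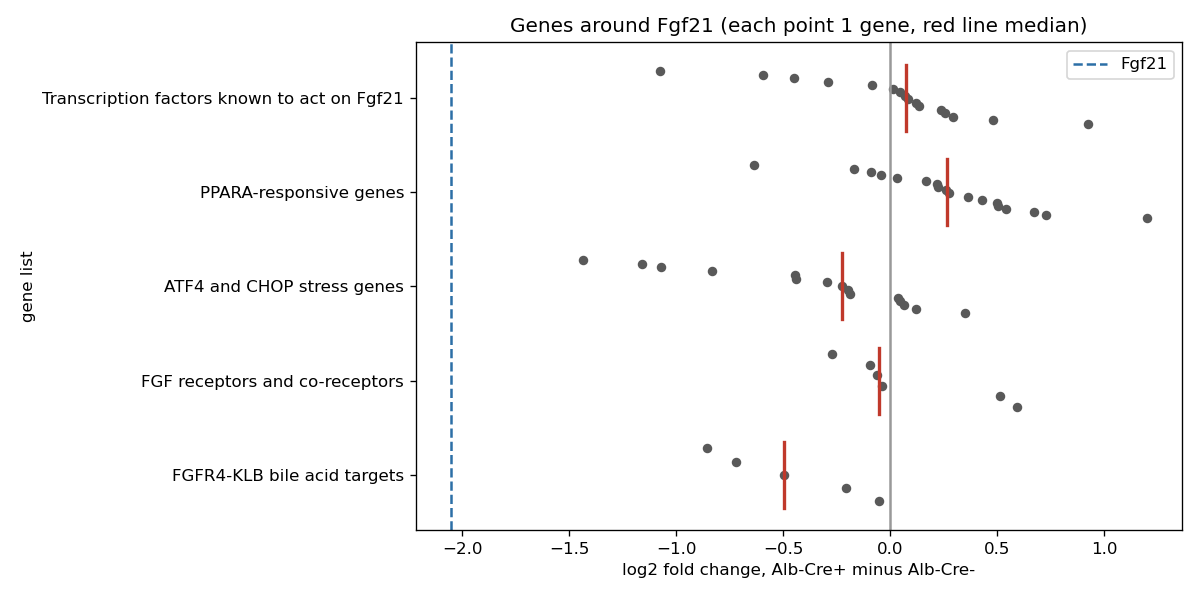
Log2 difference between genotypes (horizontal axis) of each tested gene, 1 point a gene, in 5 lists around *Fgf21*, with red lines at the list medians and a dashed line at *Fgf21* (-2.05). The medians lie between -0.50 and 0.27, and every listed gene lies to the right of *Fgf21*.

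*Gdf15* mRNA differed far more by replicate number than by genotype. It was 109, 3.79 and 11.2 TPM in Alb-Cre+ replicates 1, 2 and 3 and 111, 12.1 and 6.76 TPM in Alb-Cre- replicates 1, 2 and 3. Both replicate 1 mice were far above the other 4, and the genotype difference was -0.32 (SE 1.41; 95% interval -3.65 to 3.01), with signs that differed among the pairs. The lower replicate 1 mouse was 8.95 times the highest of the other 4, the largest such ratio among those 10635 genes, of which 16 exceeded 2. The immediate-early genes *Fos*, *Egr1* and *Ier2* showed the same split, and *Fos* was picked after its values were seen. *Fos* was 35.3 and 47.2 TPM in the replicate 1 mice and 1.76 to 5.72 TPM in the others. *Egr1* was 87.5 and 113 TPM against 3.40 to 21.7 TPM, and *Ier2* was 153 and 157 TPM against 19.0 to 34.8 TPM. *Ier3*, another immediate-early gene, did not show it, with 1.32 TPM in each replicate 1 mouse and 1.01 to 10.2 TPM in the others. What sets the replicate 1 mice apart was not tested. Hepatocyte marker sums of the replicate 1 mice (87420 and 92680 TPM) lay within the range of the others (66520 to 95650 TPM). The receptor genes *Gfral*, listed at 0 TPM, and *Ret*, with a mean of 0.00267 TPM, were under the minimum for testing.

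**Figure D3:**
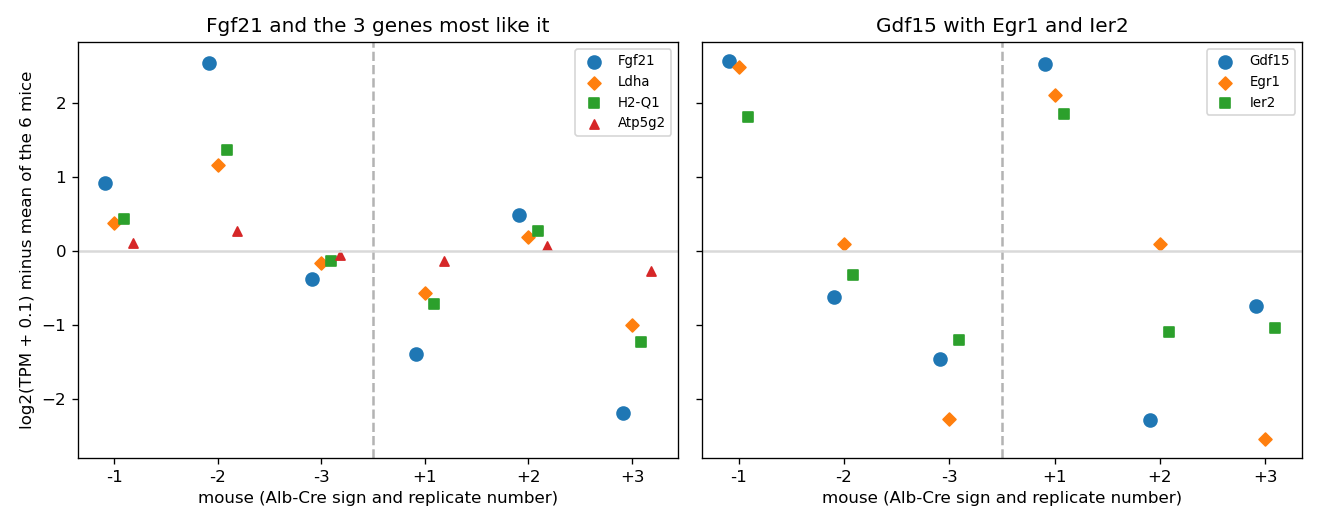
Deviation of log2(TPM + 0.1) from the mean of the 6 mice (vertical axis) for *Fgf21* with the 3 genes most like it (left) and for *Gdf15* with *Egr1* and *Ier2* (right), by mouse, named by Alb-Cre sign and replicate number. The *Gdf15* panel has its high points in both replicate 1 mice, and the *Fgf21* panel its highest in the Alb-Cre- replicate 2 mouse.

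The fetuin genes were high in every liver, and *Fetub* was the 1 member whose groups did not overlap. *Fetub* was 406, 373 and 423 TPM in Alb-Cre+ mice and 449, 430 and 471 TPM in controls, with means of 400.5 ± 25.0 TPM and 450.0 ± 20.3 TPM (SD, n = 3). Lower values with no overlap were seen in 2.71% of all genes. The control was 1.11, 1.15 and 1.11 times the Alb-Cre+ mouse within pairs, and the difference was -0.17 (SE 0.12; 95% interval -0.44 to 0.11). *Ahsg*, which ranked 16 among all genes by level, was 7638, 9396 and 6209 TPM in Alb-Cre+ mice and 7946, 9464 and 9592 TPM in controls. The first 2 pairs differed by -0.06 and -0.01 and the pair of replicate 3 mice by -0.63, so the difference of -0.23 (SE 0.24) was -0.08 without Alb-Cre+ replicate 3. The genes are neighbours on the plus strand, *Ahsg* at chr16:22891277-22899449 and *Fetub* at chr16:22918334-22939778, 18884 bases apart, and beyond them lie *Hrg*, *Kng2* and *Kng1*, which encode the related plasma proteins histidine-rich glycoprotein and the kininogens. All 5 genes of this neighbourhood were lower, 4 of them in all 3 pairs, as 12.4% of all genes were, with a median of -0.22, which was -0.08 without Alb-Cre+ replicate 3 and -0.31 without Alb-Cre+ replicate 2. *Kng1* was 1020.4, 1140.3 and 911 TPM against 1166, 1196 and 1222 TPM with no overlap (-0.23, SE 0.14), *Kng2* differed by -0.22 (SE 0.20) and *Hrg* by -0.06 (SE 0.15).

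*Lect2* was 63.2, 124 and 49.8 TPM in Alb-Cre+ mice and 104, 137 and 54.8 TPM in controls, lower in all 3 pairs with overlapping groups. Replicate 2 was highest in each group and replicate 3 lowest, the same order as for *Fgf21*. The difference was -0.34 (SE 0.43; 95% interval -1.35 to 0.67), of which the pair of replicate 1 mice gave -0.72 and the others -0.15 and -0.14. It was -0.72 without Alb-Cre+ replicate 2 and -0.05 without Alb-Cre- replicate 2. The 5 LECT2 receptor genes were all lower, with a median of -0.27, where 50.4% of all genes tested were lower. Of the 5, 1 was lower in all 3 pairs, as 12.4% of all genes were. *Itgb1* (-0.02, SE 0.16), *Met* (-0.09, SE 0.22) and *Tie1* (-0.27, SE 0.29) each had mixed signs. The list median was -0.38, 0.03 and -0.29 in pairs 1, 2 and 3. It was -0.53 without Alb-Cre+ replicate 2 and -0.02 without Alb-Cre+ replicate 3.

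*Selenop* overlapped between genotypes at a high and even level. It was 4336, 4596 and 3884 TPM in Alb-Cre+ mice and 4300.1, 4912 and 4199.9 TPM in controls. The difference was -0.07 (SE 0.18; 95% interval -0.49 to 0.36). Its mRNA is unusual in that TGA codons within the reading frame are read as selenocysteine. The reading frame of the leading transcript, which carried 95.4 to 97.2% of the gene's signal, has 380 codons and 10 in-frame TGA codons, the first at codon 59 and the second at codon 259, while the leading transcripts of the other 7 members had 0. Codons 281 to 380, from the GRCm38 transcript, are shown because 7 of the TGA codons, in capitals, fall there.
Selenop: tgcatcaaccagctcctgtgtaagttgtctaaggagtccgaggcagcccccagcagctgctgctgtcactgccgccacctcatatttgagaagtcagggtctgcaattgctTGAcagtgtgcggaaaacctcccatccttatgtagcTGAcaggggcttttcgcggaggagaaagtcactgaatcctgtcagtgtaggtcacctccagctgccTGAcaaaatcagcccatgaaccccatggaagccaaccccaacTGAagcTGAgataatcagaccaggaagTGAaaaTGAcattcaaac
Of 20 selenoprotein genes, *Selenop* included, 7 were higher and 13 lower in Alb-Cre+ livers, with a median of -0.07. Without Alb-Cre+ replicate 3 that median was 0.03. The glutathione peroxidase genes *Gpx1* (0.12, SE 0.18) and *Gpx4* (-0.10, SE 0.12) and the selenophosphate synthetase gene *Sephs2* (-0.08, SE 0.22) were the most abundant after *Selenop*. *Selenos*, which encodes a selenoprotein of endoplasmic reticulum protein degradation, was 60.5, 73.7 and 56.4 TPM against 75.8, 78.5 and 89.7 TPM, lower with no overlap (-0.36, SE 0.14). It was the 1 gene of these 20 with an unadjusted p under 0.05 in limma, beside 1.76% of all genes. The genes of selenoprotein synthesis and selenium uptake were split 5 higher and 6 lower of 11 tested, with a median of -0.01 that ran from -0.06 without Alb-Cre+ replicate 2 to 0.08 without Alb-Cre- replicate 1, among them *Selenbp1* (-0.04, SE 0.20), the selenocysteine lyase gene *Scly* (0.07, SE 0.18) and *Lrp1* (0.23, SE 0.21).

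All 8 members had a point estimate below 0, with a median of -0.25, where 50.4% of all genes tested did, and 4 of 8 were lower in all 3 pairs, where 12.4% of all genes were. The members were chosen with this contrast known, and nothing is read from those counts. Among 35 other hepatokine genes tested, 14 were higher and 21 lower with a median of -0.06, which was -0.25 without Alb-Cre+ replicate 2 and 0.03 without Alb-Cre- replicate 2. *Inhbc*, which encodes activin C, was 20.1, 21.3 and 20.2 TPM in Alb-Cre+ mice and 36.0, 38.9 and 23.3 TPM in controls, lower with no overlap (-0.64, SE 0.20). *Enho*, which encodes adropin, was 13.6, 16.2 and 16.4 TPM against 17.6, 25.3 and 23.5 TPM, also lower with no overlap (-0.51, SE 0.18). *Serpinb1a*, a protease inhibitor, was 13.3, 6.88 and 8.35 TPM against 7.35, 2.74 and 2.08 TPM, higher in all 3 pairs with overlap (1.37, SE 0.48). These 3 of the 35 had an unadjusted p under 0.05 in limma, beside 1.76% of all genes. Lower values with no overlap were seen in 2.71% of all genes. The most abundant others, *Rbp4* (-0.24, SE 0.23), *Hamp*, the iron hormone hepcidin (-0.27, SE 0.28), and *Orm1* (0.01, SE 0.73), overlapped between groups.

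**Figure D4:**
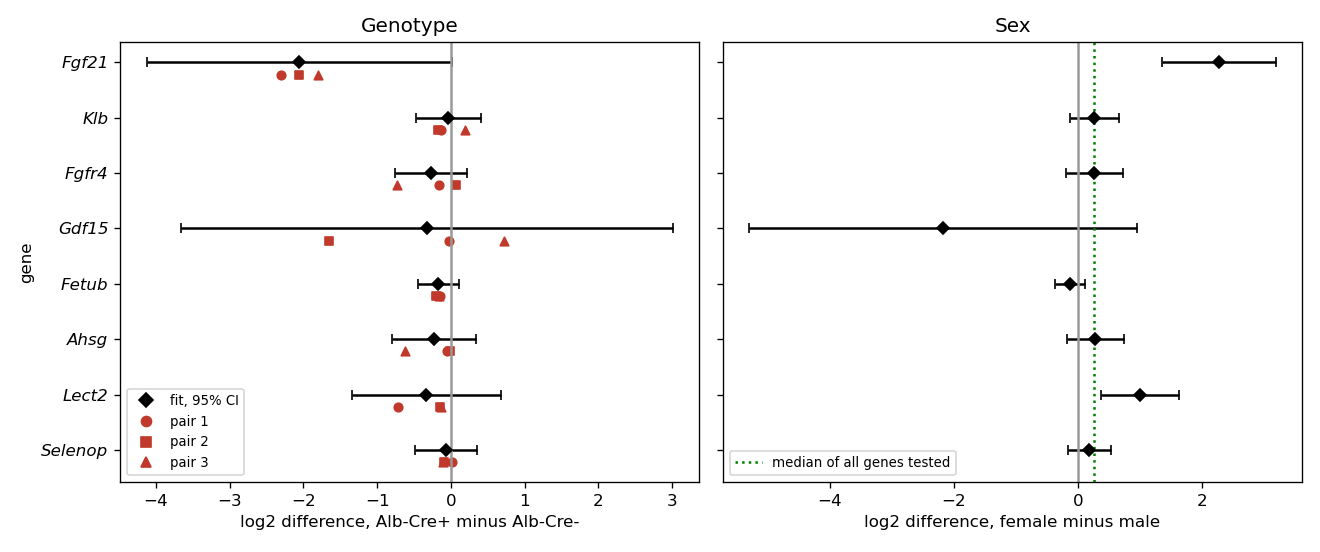
Log2 difference of each gene between genotypes (left) and sexes (right), with diamonds and bars for the limma estimate and its 95% interval, red symbols for the same-numbered pairs and a dotted line at the median of all genes for sex (0.26). The genotype intervals, from the fit with the mice unpaired, reach 0, while the 3 pairs of *Fgf21* lie between -2.31 and -1.80, and *Fgf21* lies farthest to the right for sex at 2.27.

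Sex was not used to choose the members and could be tested, with 4 males and 2 females. Both females are replicate 2, so sex and replicate number cannot be told apart. With genotype and sex in the fit, limma called 73 of 14189 genes (0.514%) at an adjusted p under 0.01, 47 higher in females and 26 lower, and 0 of the 8 members. The count was 3 without either female, 43 without Alb-Cre+ replicate 1 and 32 without Alb-Cre+ replicate 3. *Fgf21* was 16.9 and 70.4 TPM in the females and 2.57, 4.52, 9.19 and 22.7 TPM in the males, higher by 2.27 (SE 0.38; 95% interval 1.35 to 3.19) with an adjusted p of 0.0241 in limma. *Lect2* was 124 and 137 TPM in the females and 49.8, 54.8, 63.2 and 104 TPM in the males, a difference of 1.00 (SE 0.26) with an adjusted p of 0.0686 in limma. Only for *Lect2* of these 2 were both females above every male, and within each genotype the female was above both males for either gene. *Fgf21* and *Lect2* were the 2 members with an unadjusted p under 0.05, beside 28.7% of all genes. The median of all genes was 0.26 higher in females on the deposited scale, where 22 major urinary protein genes took 7.27 to 17.5% of all TPM in males and 1.35 to 1.38% in females. With median of ratios scaling that median was -0.01 and the differences were 1.99 for *Fgf21* and 0.71 for *Lect2*. *Klb* (0.27), *Fgfr4* (0.27), *Ahsg* (0.28) and *Selenop* (0.19) were higher in females as deposited and -0.02, -0.02, -0.0042 and -0.10 after that scaling. *Gdf15* differed by -2.17 (SE 1.30), and its high male values were those of the replicate 1 mice (109 and 111 TPM). The replicate 3 males, at 11.2 and 6.76 TPM, lay between the females, at 3.79 and 12.1 TPM. *Fetub* differed by -0.12, or -0.41 after scaling.

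Markers of Kupffer, sinusoidal endothelial and stellate cells were higher in the 2 females, while those of other cell types were not. Kupffer cell markers summed to 424 and 461 TPM in the females and 116 to 181 TPM in the males, and sinusoidal endothelial markers to 156 and 181 TPM against 71.7 to 122 TPM. Stellate cell markers summed to 337 and 358 TPM in the females and 129 to 274 TPM in the males. Hepatocyte sums overlapped, with 81080 and 95650 TPM against 66520 to 92680 TPM. So did cholangiocyte sums (36.2 and 39.2 TPM against 15.0 to 59.2 TPM) and lymphocyte sums (2.4 and 4.1 TPM against 1.3 to 2.7 TPM). Pancreatic acinar sums were lower in the females, 16.2 and 16.5 TPM against 19.8 to 21.9 TPM. The part of any of these cell types in the *Fgf21* and *Lect2* differences was not tested. Among the lists, *Cyp7b1*, known to be higher in male liver, was lower in females by 2.60 (adjusted p 0.00483 in limma), and the immediate-early gene *Ier3* was higher by 2.73 (adjusted p 0.0043 in limma). The female values of *Cyp7b1* were 7.11 and 7.62 TPM against 34.2 to 58.5 TPM in males, and those of *Ier3* were 10.2 and 7.04 TPM against 1.01 to 1.32 TPM.

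Genes were also ranked by the likeness of their pattern over the 6 mice to that of each member, as a description, since the best of 10635 genes over 6 points will always be close and all points share their libraries. *Ldha*, which encodes a lactate dehydrogenase subunit, was closest to *Fgf21* with a Pearson correlation of 0.999 (Spearman 1) on the log2 scale. *Ldha* was 708, 1198 and 525 TPM in Alb-Cre+ mice and 1361, 2336 and 935 TPM in controls, a difference of -0.91 (SE 0.41), less than that of *Fgf21*. *H2-Q1* (0.998) and *Atp5g2* (0.995) followed. The closest genes to the other members were *Cyp2c37* for *Klb*, *Ric1* for *Fgfr4*, *Mrnip* for *Gdf15*, *Pih1d1* for *Fetub*, *Timm8b* for *Ahsg*, *Anxa2* for *Lect2* and *Snrpe* for *Selenop*, with correlations of 0.981 to 0.999. Among the members *Fgfr4* and *Ahsg* were the closest pair (Pearson 0.977, Spearman 0.943). *Fgf21* was close to *Lect2* (0.893, Spearman 0.886) and to *Selenop* (0.871, Spearman 0.714). Its Pearson correlations with *Klb*, *Fgfr4* and *Ahsg* were 0.71, 0.71 and 0.72. It was not close to *Fetub* (0.082, Spearman 0.257) or *Gdf15* (-0.096, Spearman 0.20).

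By level, the members fell into separate ranges that their spread over mice did not bridge, except at the low end. *Ahsg* (6209 to 9592 TPM), *Selenop* (3884 to 4912 TPM) and *Fetub* (373 to 471 TPM) came first and did not overlap with each other or with any other member. *Lect2* (49.8 to 137 TPM) overlapped with *Gdf15* (3.79 to 111 TPM) and with *Fgf21* (2.57 to 70.4 TPM). *Klb* (11.9 to 18.1 TPM) and *Fgfr4* (6.95 to 11.6 TPM) lay within the ranges of *Gdf15* and *Fgf21*. In 6 of 6 mice *Klb* was above *Fgfr4*. *Fgf21* was above *Klb* in 3 of 6, both females and Alb-Cre- replicate 1.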

How the data were processed

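RNA was from whole livers of 6 mice. The authors deposited TPM per transcript for each mouse, labelled as Salmon output, and the study's methods name STAR, RSEM and GRCm38. The file of the authors' own DESeq2 comparison, which holds mean counts, fold changes and p-values, was not used. TPM was summed by gene symbol, leaving out 163 transcripts without a symbol (0.0515 to 0.0887% of TPM). Genes averaging 0.1 TPM or more were fitted as log2(TPM + 0.1) with limma 3.58.1 (R 4.3.3) and a variance trend, by genotype and, for sex, by genotype and sex, two-sided, with Benjamini-Hochberg adjustment over all genes tested and a threshold of 0.01. The genotype fit without a block was tested on simulated data with independent errors, and the fits with sex or a block were not. Same-numbered mice were compared as pairs by the numbers in the titles, though neither the titles nor the paper state a pairing. They deviated together from their group means (correlations 0.37, 0.59 and 0.37, against -0.44 to 0.17 for other pairings). These correlations cannot settle a pairing, because deviations within a group of 3 sum to 0 and replicate 2 is each group's female. Among the males, other pairings gave 0.17 and 0.09, against 0.37 for same numbers. Positions and reading frames are from GENCODE M21 and promoters from RefSeq, both on GRCm38.

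The members and all lists were chosen with earlier results of these data known. Named genes were the members, the 3 most abundant genes of each list, list genes with an unadjusted p under 0.05 for genotype or sex and a mean of at least 1 TPM (for sex, only those past the threshold are named), all FGF receptor and fetuin neighbourhood genes, *Surf4*, and the genes most like each member. No column was left unmapped. Alternatives were another pseudocount, other filters, median of ratios scaling, no trend, a sex term, a replicate block, a threshold of 0.05 and leaving out each mouse.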

Additional observations from a re-analysis of the deposited data

Results flagged for a closer look

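The genotype difference of *Fgfr4* was looked at again because the sexes moved in opposite directions. In the female pair (replicate 2) *Fgfr4* was 0.0734 higher in the Alb-Cre+ mouse on the log2 scale, and in both male pairs it was lower, by -0.16 and -0.73. With 1 female pair the difference between the sexes was not tested.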

How the results depend on the processing

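The genotype comparison called 0 genes under each setting tried, including the replicate block (0 genes, with 666 at an unadjusted p under 0.05 against 250 without it), a sex term and a threshold of 0.05, except that leaving out single mice gave 0 to 1 gene. That gene was *Gm10240*, called without Alb-Cre+ replicate 1 (0, 159 and 134 TPM in Alb-Cre+ mice, 0 in each control), named after its values were seen. The block changed no call. The sex comparison called 73 genes, 28 with no filter on low values, 31 with no variance trend and 1019 at a threshold of 0.05. Leaving out single mice gave 3 to 51, with 3 without either female, 43 without Alb-Cre+ replicate 1 and 32 without Alb-Cre+ replicate 3. The genotype difference of *Fgf21* was -2.06 to -1.87 over the other settings and -2.81 (without Alb-Cre+ replicate 2) to -1.30 (without Alb-Cre- replicate 2) over the left-out mice. *Gdf15* ran from -1.67 to 0.88, *Klb* from -0.21 to 0.09, *Selenop* from -0.12 to 0.0041, *Lect2* from -0.72 to -0.05 and *Fgfr4* from -0.45 to -0.09 over the left-out mice, and *Fetub* and *Ahsg* stayed below 0. The causes were not tested. Each genotype rests on 3 mice and the female sex on 2, and the depth behind TPM is unknown.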
